A study of Mus musculus with 11 samples.

Results

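Mammary tumours of MMTV-Neu+/- mice labelled DMBA treated (5 tumours) were set beside mammary tumours of the same genotype labelled Untreated (6 tumours), over the genes that each array design measured with exactly 1 feature. Of 16351 gene symbols named in both tables, 8351 had 1 feature in the DMBA treated table and 1 in the Untreated table, and only these are described. Each value is therefore the reading of a single probe, with no averaging over probes. The 2 tables hold 45220 and 22575 features, come from different array platforms and were normalized separately. All DMBA treated tumours lie in the first table and all Untreated tumours in the second, so platform and treatment cannot be told apart, and no test was made between the groups. Differences below are DMBA treated minus Untreated, on the log2 scale, as descriptions of these arrays.

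Neu is the rat form of Erbb2, a receptor tyrosine kinase of the epidermal growth factor receptor family, and the mouse mammary tumour virus promoter drives it mainly in mammary epithelium. DMBA, dimethylbenzanthracene, is a polycyclic aromatic hydrocarbon. It binds the aryl hydrocarbon receptor (AhR), a ligand-activated transcription factor that induces some cytochrome P450 and conjugating enzymes, and the oxidised products bind DNA. The other channel of every array held a common reference RNA of whole mouse. A log2 ratio thus places a gene in the tumour against a pool of mouse tissues, and 0 means equal signal. The sources used here give no dose, age or strain. The labels do not say that each tumour came from its own mouse, so a p-value reflects spread among these arrays alone, part of which may be technical. Tumour numbers follow accession order and pair nothing. Some titles in both groups carry the same number, but no label says that it marks a shared mouse, litter or day. DMBA 3 and DMBA 4 carry the same number in their titles and were kept as separate tumours. Erbb2 itself is not among the genes described, since it has 11 features in the DMBA treated table.

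The tumour dye is not settled by the labels, so the direction of the ratio, tumour over reference, is likely rather than stated. It was read from genes of 4 organs that a whole mouse pool holds. The median log2 ratio over 23 liver genes was -3.42 in DMBA treated and -3.57 in Untreated tumours, and over 17 skeletal muscle genes -3.13 and -3.56. Over 7 brain genes it was -2.70 and -0.42, and over 26 testis genes -0.01 and 0.01, so testis genes gave no direction in either group and brain genes little in Untreated tumours. Of 51 marker genes listed for cell types, 26 had 1 feature in each table. Epcam, an epithelial adhesion gene, averaged 3.23 ± 0.17 in DMBA treated tumours (SD, n = 5) and 2.61 ± 0.23 in Untreated tumours (SD, n = 6). Krt18, a luminal keratin, averaged 2.56 ± 0.42 and 2.17 ± 0.21 in the same order, and Lalba, the alpha-lactalbumin gene of secretory cells, 2.96 ± 0.10 and 3.14 ± 0.31. Krt5, a basal keratin, averaged -2.81 ± 0.11 in DMBA treated and -3.65 ± 0.12 in Untreated tumours. The adipocyte marker Adipoq averaged -4.08 ± 0.20 and -4.39 ± 0.10, and the neutrophil marker S100a9 -5.31 ± 0.45 and -5.81 ± 0.16. Of 5 luminal markers 5 had a DMBA treated mean above 0 and 4 an Untreated mean above 0, the exception being Esrp1, and the 3 alveolar markers were above 0 in both groups. Lower ratios of a cell type's genes cannot tell fewer cells of that type from less RNA per cell.

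Most single-feature genes had close values in the 2 groups. The median difference was -0.038, the middle of the genes ran from -0.40 (25th percentile) to 0.30 (75th percentile), and 7456 genes (89.3%) differed by less than 1, which is less than 2-fold. There was no overlap between the 2 groups for 1338 genes (16.02%), so lack of overlap alone does not single a gene out. A gene is called apart here when its groups did not overlap and its means differed by at least 1. Of the 8351 genes, 213 (2.55%) were apart and higher in DMBA treated tumours, and 430 (5.15%) were apart and lower. A further 695 genes did not overlap but differed by less than 1, and 252 differed by at least 1 but overlapped. Higher genes made up 33.1% of all genes apart. That share was 44.7% after scaling the arrays to one SD and 48.4% after quantile normalization of all 11 arrays together, with 278 genes apart and lower in the last case, of which 257 were among the 430.

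**Figure D1:**
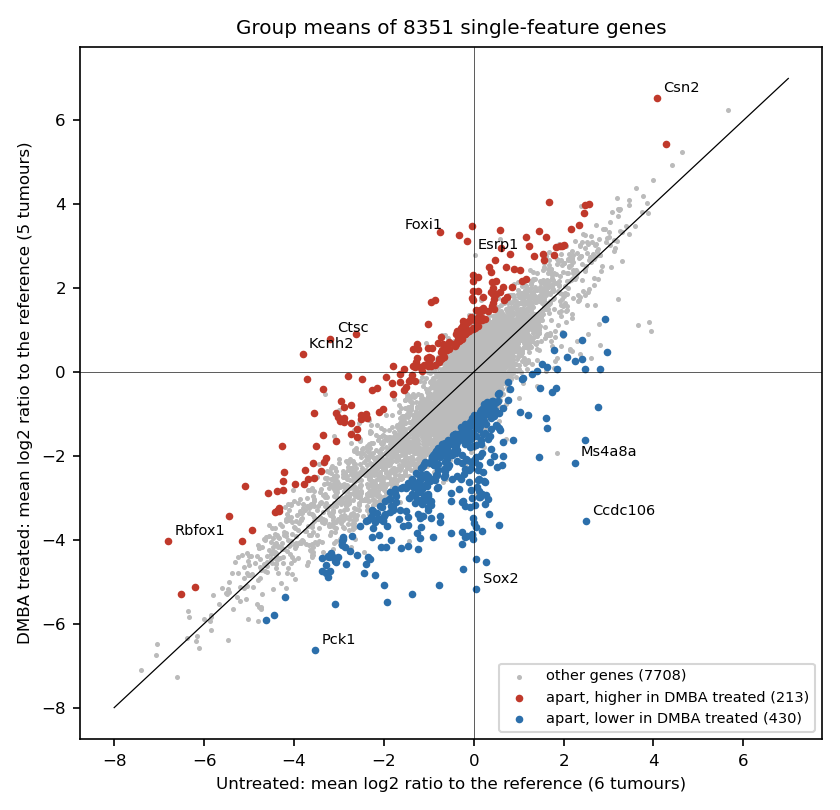
Mean log2 ratio to the reference in DMBA treated tumours (vertical axis, 5 tumours) against Untreated tumours (horizontal axis, 6 tumours) for the 8351 genes, with the line of equality. Red points mark the 213 genes apart and higher in DMBA treated tumours and blue points the 430 apart and lower. Many blue points lie in a column near 0 on the Untreated axis, where 55.8% of all 8351 genes lie within 0.5 of 0.

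Many of the lower genes were near 0 in Untreated tumours, as were 55.8% of all single-feature genes. Of the 430, 177 (41.2%) had an Untreated mean within 0.5 of 0 while the DMBA treated mean was not, 18 had the reverse, 210 lay on the same side of 0 in both groups and 25 on opposite sides. Of the 213 higher genes, 66, 40, 85 and 22 fell in these 4 classes. Over all single-feature genes, the mean lay within 0.5 of 0 for 3620 (43.4%) in DMBA treated and 4662 (55.8%) in Untreated tumours. Group means also spread more widely over genes in DMBA treated (SD 1.41) than in Untreated tumours (SD 1.25). The platform annotations gave the same transcript accession to both features for 7949 genes and different accessions for 402. Genes apart made up 2.32% higher and 4.93% lower of the first class and 7.21% higher and 9.45% lower of the second. The part of the probes in these differences was not tested, and whether a gene's features match the same transcript is given below where it is not so.

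At the threshold, Tmem81 (difference 1.0001) and Rccd1 (1.009), whose features differ in accession, lay just inside among the higher genes. Actrt1 (0.999) and Rsrp1 (0.995) lay just outside. Among the lower genes Pigv (-1.001) and Asgr2 (-1.004) lay just inside, and Rbm45 (-0.9994) and Limk1 (-0.996) just outside. Without any 1 of several single tumours, those 4 inside fell short of 1, with differences of 0.90 to 0.99 for Tmem81 and Rccd1 and of -0.67 to -0.99 for Pigv and Asgr2.

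The 15 largest differences among genes higher in DMBA treated tumours ran from 2.58 to 4.23. Kcnh2, which encodes a voltage-gated potassium channel, stood at -0.23, 1.92, -0.73, -0.02 and 1.203 in DMBA 1 to 5, and in Untreated tumours between -4.24 and -3.41 with a median of -3.82. Ctsc, the gene of the lysosomal protease cathepsin C, stood at 1.08, 0.93, 0.78, 0.73 and 0.46 in DMBA 1 to 5, and in Untreated tumours between -3.62 and -2.58 with a median of -3.23. Foxi1, a forkhead transcription factor of ion-transporting epithelial cells, stood at 3.18, 3.07, 3.12, 2.99 and 3.94 in DMBA 1 to 5, and in Untreated tumours between -0.997 and 0.34 with a median of -0.29. For each of these 3 genes all DMBA treated tumours lay above all Untreated tumours by a gap wider than the spread within either group. Dusp7, a phosphatase that inactivates ERK kinases, stood at 1.19, 2.09, 2.04, 1.69 and 1.34 in DMBA 1 to 5, and in Untreated tumours between -1.68 and -0.23 with a median of -0.89. Prpf19, a component of the spliceosome, averaged 1.71 ± 0.25 in DMBA treated tumours (SD, n = 5) and -0.87 ± 0.23 in Untreated tumours (SD, n = 6). These 2 genes lay above the reference in every DMBA treated tumour and below it in every Untreated tumour. Rassf3, of the Ras association domain family, averaged 3.39 ± 0.20 and 0.59 ± 0.37, and Rbfox1, a splicing factor of neurons and muscle, -4.04 ± 0.28 and -6.80 ± 0.23, so the same kind of gap appeared well above and well below the reference.

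Of these 15 genes, 6 had features of different accessions, namely Syne4, Ism1, Tmem82, Esrp1, Rbfox1 and Numbl. Esrp1, an epithelial splicing regulator, was one of them, at 3.05, 3.21, 3.20, 3.24 and 2.93 in DMBA 1 to 5 and between -0.70 and 0.31 in Untreated tumours (median -0.07). Its Untreated values straddled 0 while the other 4 luminal markers, Epcam and Krt18 among them, had Untreated means above it. Syne4, a nuclear envelope protein of epithelial cells, averaged 3.34 ± 0.23 in DMBA treated (SD, n = 5) and -0.76 ± 0.95 in Untreated tumours (SD, n = 6). The other genes of the 15 were Myh13, a myosin heavy chain of eye muscle (0.91 and -2.61), Doc2a, a calcium sensor of transmitter release (-0.40 and -3.36), and Tmcc2 (-0.97 and -3.56), as means of DMBA treated and Untreated tumours.

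The 15 largest differences among genes lower in DMBA treated tumours ran from 3.82 to 6.06 in size. An Untreated mean within 0.5 of 0 was found for 9 of the 15. Over all single-feature genes 55.8% had one, so this trait is not particular to them. Ccdc106, Ms4a8a and Mip, which lay on opposite sides of the reference, are given further down, and Hoxa11 with its family. Sox2, a transcription factor of stem cells and the nervous system, stood at -4.45, -5.25, -4.79, -7.13 and -4.29 in DMBA 1 to 5, and in Untreated tumours between -0.33 and 0.23 with a median of 0.12. Slc12a5, the neuronal potassium-chloride cotransporter, stood at -4.25, -4.13, -4.51, -4.62 and -4.74 in DMBA 1 to 5, and in Untreated tumours between -0.20 and 0.42 with a median of -0.03. Slc32a1, the vesicular transporter of the inhibitory transmitter GABA, averaged -4.54 ± 0.23 in DMBA treated tumours (SD, n = 5) and 0.28 ± 0.24 in Untreated tumours (SD, n = 6). In each case the DMBA treated array read the gene far below the whole mouse pool, and the Untreated array read it level with the pool. Ncan, a proteoglycan of brain matrix (means -4.70 and -0.23), Nlgn1, a synaptic adhesion gene with features of different accessions (-3.78 and 0.17), and Lrrc4c, a netrin-G ligand of axons (-3.87 and -0.04), had the same form.

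Other lower genes had other known roles. Axin2, a feedback inhibitor and target of Wnt signalling, stood at -4.25, -3.75, -5.00, -3.68 and -3.82 in DMBA 1 to 5, and in Untreated tumours between -0.41 and -0.06 with a median of -0.26. Aoc1, the histamine-degrading diamine oxidase, averaged -5.07 ± 0.45 in DMBA treated (SD, n = 5) and -0.78 ± 0.11 in Untreated tumours (SD, n = 6). Bves, a membrane protein of heart and skeletal muscle, averaged -5.29 ± 0.56 and -1.36 ± 0.18, and both genes were thus below the reference in every tumour. Pla2g5, a secreted phospholipase, averaged -3.63 ± 0.28 in DMBA treated and 0.57 ± 0.23 in Untreated tumours. Mirg, an imprinted noncoding transcript, averaged -3.98 ± 0.31 and -0.02 ± 0.11, but its features carry different gene numbers in the platform annotations.

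**Figure D2:**
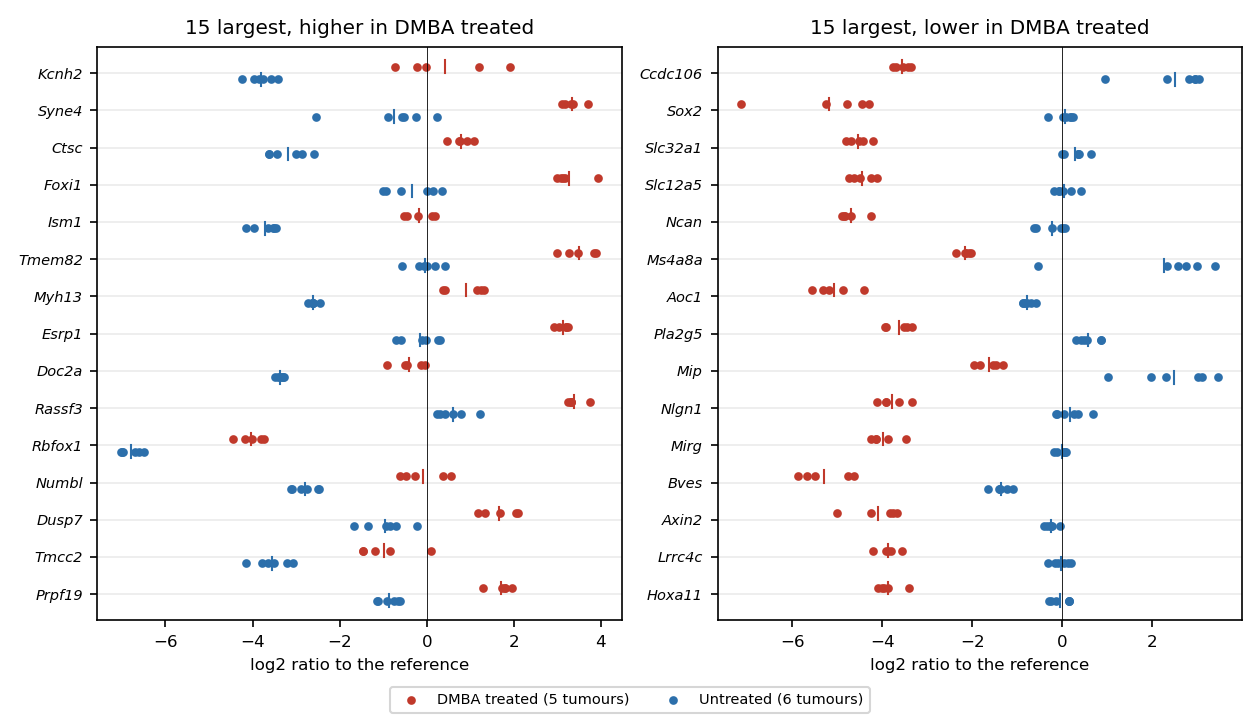
Log2 ratio to the reference in each tumour for the 15 largest differences higher (left panel) and lower (right panel) in DMBA treated tumours. Red points are DMBA treated tumours, blue points below them Untreated tumours, and bars group means. No gene shows overlap between the groups. In the right panel 9 of the 15 genes have Untreated means within 0.5 of 0, as do 55.8% of all single-feature genes.

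A small set of genes lay clearly on opposite sides of the reference. Each group was tested against a ratio of 0 in its own table with limma. Of the 8351 genes, 25.3% were called above and 34.2% below the reference in DMBA treated tumours (adjusted p under 0.05), and 28.3% above and 32.6% below in Untreated tumours. Called in both tables, with means of at least 1 in size on opposite sides, were 9 genes, 1 of them higher in DMBA treated tumours and 8 lower, and 8 of the 9 were apart. Ccdc106, a coiled-coil protein gene whose features differ in accession, had the largest difference of all genes apart, at -3.54, -3.37, -3.69, -3.42 and -3.77 in DMBA 1 to 5 and between 0.95 and 3.04 in Untreated tumours (median 2.88). Mip, the lens fibre water channel, averaged -1.63 ± 0.26 in DMBA treated tumours (SD, n = 5) and 2.47 ± 0.90 in Untreated tumours (SD, n = 6). Ms4a8a, of the family that includes the B cell gene for CD20, averaged -2.16 ± 0.13 and 2.25 ± 1.41, with 1 Untreated tumour at -0.53. Cep68, a centrosome linker gene, was the 1 gene in the other direction, at 1.15 ± 0.32 and -1.01 ± 0.18. Chil3, a chitinase-like protein of alternatively activated macrophages, was among the 9 but overlapped, from -4.61 to 0.51 in DMBA treated and from -1.24 to 2.84 in Untreated tumours.

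The genes were then read by family and pathway, with 64 lists that hold 1212 of the single-feature genes. Within the lists 33 genes were apart and higher and 87 apart and lower. A list's share of members apart is to be read against the 2.55% higher and 5.15% lower over all single-feature genes. Median differences over members lay above 0 in 32 of the 64 lists and were over 0.5 in size in 7. In 15 lists no member was apart.

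**Figure D3:**
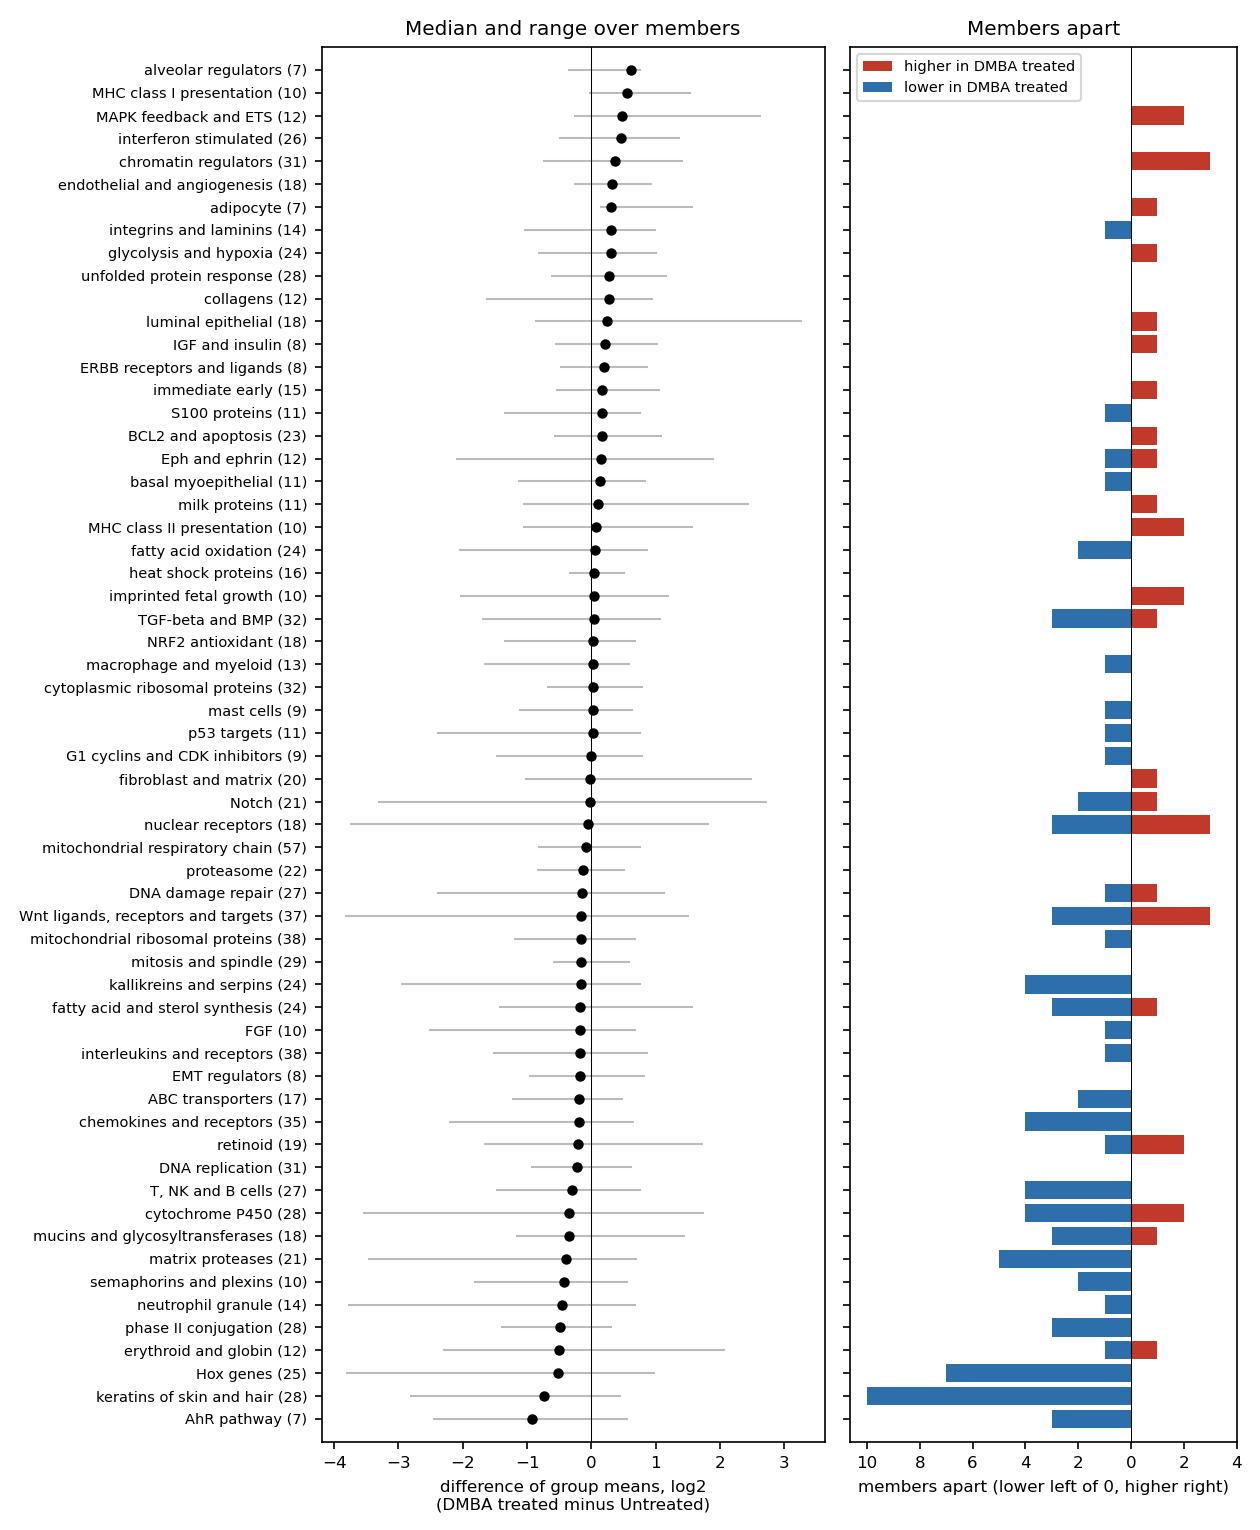
Gene lists with the number of single-feature members in parentheses, ordered by median difference. Left, the median difference of group means over members (black point) and its range (grey line), on the log2 scale, DMBA treated minus Untreated. Right, members apart, with lower in DMBA treated in blue left of 0 and higher in red right of 0. The AhR pathway, the keratins of skin and hair and the Hox genes lie at the bottom and hold members apart in the lower direction only. The 4 lists of reference organs are not drawn.

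Genes of the AhR pathway had lower ratios in DMBA treated tumours. Of 18 listed genes 7 had 1 feature in each table, and of these 3 were apart and lower, 0 apart and higher, with a median difference of -0.93. After quantile normalization of all arrays together 1 remained apart, and the median difference was -0.47. The pathway works through AhR and its partner ARNT, which bind the core letters GCGTG. In RefSeq promoter windows of 300 bases (GRCm38.p6), most of each lying upstream of the gene's start, these letters, on either strand, occurred in 4 of the 6 AhR pathway members with a window. They occurred in 35.2% of all 27025 genes with a window and in 41.1% of the 6672 single-feature genes with one. Among the genes apart, windows held them for 70 of 169 higher genes (41.4%) and for 104 of 346 lower genes (30.1%). The core itself holds the letters CG, and windows differed in these. The median count of CG was 10 for higher genes, 7 for lower genes and 13 for all single-feature genes with a window. The part of base composition in the shares was not tested. A match is a description of letters and not evidence of binding. The 4 windows that hold the core are shown, and those of Nqo1 and Arnt2, which do not hold it, are left out. Capitals mark GCGTG or its reverse complement CACGC.
Ahrr, chr13:74292282-74292581, minus strand: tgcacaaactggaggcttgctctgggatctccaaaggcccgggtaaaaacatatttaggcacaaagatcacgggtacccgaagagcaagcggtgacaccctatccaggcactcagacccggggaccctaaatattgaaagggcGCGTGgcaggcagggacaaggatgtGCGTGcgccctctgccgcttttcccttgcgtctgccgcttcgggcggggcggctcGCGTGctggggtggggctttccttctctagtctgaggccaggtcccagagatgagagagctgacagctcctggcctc
Gsta1, chr9:78230419-78230718, plus strand: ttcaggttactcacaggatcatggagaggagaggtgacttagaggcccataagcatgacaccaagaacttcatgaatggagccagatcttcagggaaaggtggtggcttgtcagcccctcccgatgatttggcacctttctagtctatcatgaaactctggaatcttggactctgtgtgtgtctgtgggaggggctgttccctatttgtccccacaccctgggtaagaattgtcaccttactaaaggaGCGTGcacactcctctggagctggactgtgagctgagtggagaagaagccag
Cyp1a1, chr9:57697363-57697662, plus strand: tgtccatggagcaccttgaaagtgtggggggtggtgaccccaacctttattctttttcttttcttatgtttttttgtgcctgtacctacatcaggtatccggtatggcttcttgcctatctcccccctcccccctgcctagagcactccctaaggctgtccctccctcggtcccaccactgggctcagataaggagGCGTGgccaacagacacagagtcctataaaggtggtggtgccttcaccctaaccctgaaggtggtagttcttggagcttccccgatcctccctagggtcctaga
Tiparp, chr3:65528197-65528496, plus strand: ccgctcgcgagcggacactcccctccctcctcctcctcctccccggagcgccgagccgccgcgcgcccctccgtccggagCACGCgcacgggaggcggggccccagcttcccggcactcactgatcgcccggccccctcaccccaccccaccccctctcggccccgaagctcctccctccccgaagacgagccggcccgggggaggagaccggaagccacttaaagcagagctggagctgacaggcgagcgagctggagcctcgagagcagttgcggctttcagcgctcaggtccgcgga

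Ahrr, the repressor of the receptor and itself a target, whose window holds the core 3 times, stood at -2.61, -3.87, -3.71, -2.60 and -2.54 in DMBA 1 to 5, and in Untreated tumours between -2.43 and -1.48 with a median of -1.94. Cyp1a1, the classical induced P450 enzyme, stood at -2.19, -2.64, -2.42, -1.96 and -2.63 in DMBA 1 to 5, and in Untreated tumours between -2.31 and -1.38 with a median of -1.69. Gsta1, a glutathione transferase, stood at -3.17, -3.46, -3.70, -3.43 and -4.10 in DMBA 1 to 5, and in Untreated tumours between -2.94 and -1.52 with a median of -2.27. All 3 lay below the whole mouse reference in every tumour, and Cyp1a1 overlapped between the groups. Tiparp, a poly(ADP-ribose) polymerase induced by the receptor, averaged -2.45 ± 0.22 in DMBA treated tumours (SD, n = 5) and -1.52 ± 0.42 in Untreated tumours (SD, n = 6) and did not overlap, at a difference of -0.93. Arnt2, a partner of the receptor that is mainly neuronal, averaged -2.003 ± 0.78 and 0.46 ± 0.24, and was the member that stayed apart under every scaling tried. Nqo1, a quinone reductase, was the 1 member with a positive difference, at 0.64 ± 0.97 and 0.07 ± 0.76, and Aldh3a1, an aldehyde dehydrogenase, was at 0.11 ± 0.29 and 0.14 ± 0.15. Without DMBA 2, DMBA 3 or Untreated 4, Ahrr was no longer apart, at differences of -0.88, -0.92 and -0.98.

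Some enzymes of conjugation and some P450 enzymes are textbook targets of the same receptor, but these lists hold the families as a whole. Of 28 phase II genes, 3 were apart and lower (0 after quantile normalization), the median difference was -0.49, and 4 members had a positive difference. Sult1c2, a sulfotransferase, averaged -2.67 ± 0.43 in DMBA treated tumours (SD, n = 5) and -1.27 ± 0.37 in Untreated tumours (SD, n = 6). Ugt2b34, a glucuronosyltransferase, averaged -1.199 ± 0.19 and 0.01 ± 0.997, and without Untreated 4, where it was highest, its difference was -0.83. Of 28 cytochrome P450 genes, 4 were apart and lower and 2 apart and higher, with a median difference of -0.34. After scaling to one SD 3 were lower and 4 higher, and after quantile normalization 3 were lower and 3 higher, so the P450 counts gave no set direction. The lower ones included Cyp3a41a and Cyp3a16, liver genes of the steroid- and drug-metabolising family (-5.47 and -1.92, and -4.90 and -3.24, as means of DMBA treated and Untreated tumours), and Cyp7b1, an oxysterol hydroxylase (-2.71 and -1.14). Cyp3a genes are near copies of each other, so their probes may share targets. The higher ones were Cyp27a1, a sterol hydroxylase (-0.39 and -2.14), and Cyp2c39 (-1.49 and -2.73). Of 18 NRF2 antioxidant genes 0 were apart, with a median difference of 0.030.

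Keratins of skin and hair held the most members apart. These are structural proteins of the epidermis and hair shaft and of cornified layers. Of 28 members 10 (35.7%) were apart and lower in DMBA treated tumours and 0 higher, 25 had a negative difference, and the median difference was -0.73 (-0.38 with 7 apart after quantile normalization). Krt79, a keratin of hair follicle openings, stood at -3.83, -3.30, -3.82, -3.67 and -3.20 in DMBA 1 to 5, and in Untreated tumours between -1.38 and -0.38 with a median of -0.71. Krt33a, a hair keratin, averaged -4.15 ± 0.18 in DMBA treated tumours (SD, n = 5) and -1.47 ± 0.46 in Untreated tumours (SD, n = 6). Krt20, a keratin of gut epithelium, averaged -4.84 ± 0.22 and -2.19 ± 0.35. Krt34, another hair keratin, lay on opposite sides of the reference, at -1.09 ± 0.45 and 1.598 ± 0.92. Not every cornified gene differed: Lor, the loricrin gene of the cell envelope, averaged -4.90 ± 0.36 in DMBA treated and -4.76 ± 0.25 in Untreated tumours and overlapped. The list's median did not overlap between the groups, running from -2.30 to -1.80 over DMBA treated tumours and from -1.42 to -1.01 over Untreated tumours. Hair keratins are similar in sequence, and which of them a probe reads was not tested.

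Hox genes, which set position along the body axis in the embryo, came next. Of 25 members 7 (28%) were apart and lower in DMBA treated tumours and 0 higher, and the median difference was -0.51 (-0.23 with 5 apart after quantile normalization). Hoxa11, a gene of limb and uterus, stood at -4.10, -3.88, -4.01, -3.40 and -3.95 in DMBA 1 to 5, and in Untreated tumours between -0.30 and 0.15 with a median of -0.01. Hoxd8 averaged -2.83 ± 0.18 in DMBA treated tumours (SD, n = 5) and -1.23 ± 0.18 in Untreated tumours (SD, n = 6), and Hoxd10 -1.73 ± 0.48 and 0.06 ± 0.25. Hoxb2 averaged -2.82 ± 0.44 and -1.21 ± 0.26, with features of different accessions, and its symbol also stands on a feature listed for several genes. Neighbouring genes of 1 cluster did not share a direction, since Hoxa10, next to Hoxa11 in the HoxA cluster, averaged -3.15 ± 0.68 in DMBA treated and -4.14 ± 0.28 in Untreated tumours, with overlap. Hoxd12 averaged 0.39 ± 0.90 and 0.49 ± 0.30 and overlapped.

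**Figure D4:**
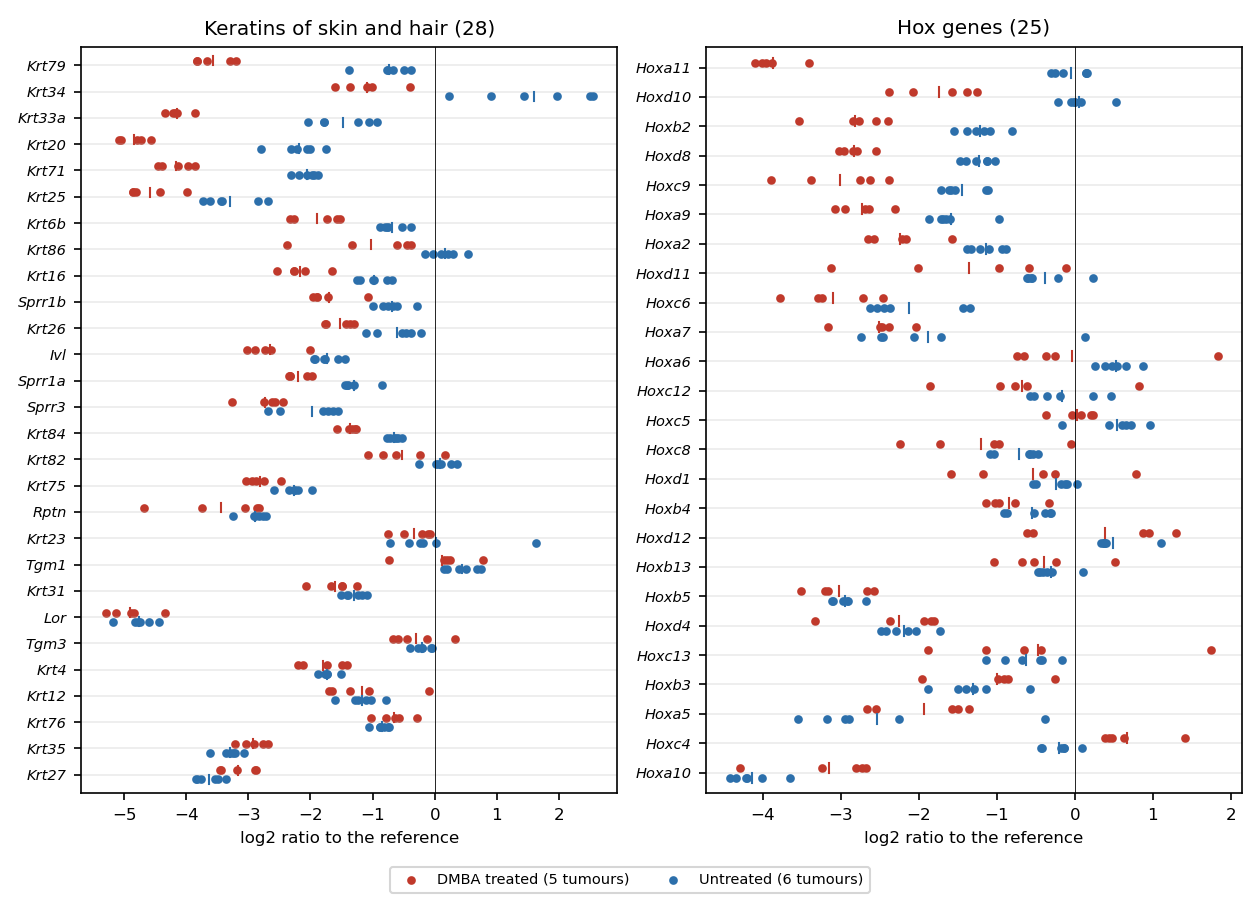
Log2 ratio to the reference in each tumour for the 28 keratins and cornified genes of skin and hair (left panel) and the 25 Hox genes (right panel), ordered by difference of group means. Red points are DMBA treated tumours, blue points below them Untreated tumours, and bars group means. The 10 keratin-list genes and 7 Hox genes apart stand in the upper rows, with every DMBA treated tumour left of every Untreated tumour.

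Casein genes had high ratios in both groups, while other genes of the mammary lists lay on both sides of the reference. Csn2, the beta-casein gene, stood at 6.17, 8.37, 5.61, 5.91 and 6.62 in DMBA 1 to 5, and in Untreated tumours between 3.07 and 5.32 with a median of 3.85. It was the 1 of 11 milk protein genes apart, with a difference of 2.46, but not apart after quantile normalization or scaling to one SD. Csn1s2a, another casein gene, averaged 6.24 ± 0.60 in DMBA treated tumours (SD, n = 5) and 5.65 ± 0.64 in Untreated tumours (SD, n = 6), and overlapped. The milk list's median difference was 0.11, and it turned to -0.29 after quantile normalization and to -0.22 after scaling to one SD. Against the reference, limma called 5 of the 11 milk genes higher and 3 lower in DMBA treated tumours, where 25.3% and 34.2% of all single-feature genes were called. In Untreated tumours it called 6 of the 11 higher and 2 lower, against 28.3% and 32.6% of all single-feature genes. The lower ones included Cidea, a lipid droplet protein of milk fat and brown fat, at -4.18 ± 0.34 and -4.29 ± 0.69. Among 7 regulators of alveolar cells 0 were apart (1 higher after quantile normalization). Gata3, a luminal transcription factor, did not overlap, at 4.38 ± 0.30 and 3.61 ± 0.29, but its difference was 0.77. Elf5, the alveolar ETS factor, averaged 4.04 ± 0.19 and 3.87 ± 0.31, and Stat5a, the prolactin-activated factor, 2.59 ± 0.24 and 1.86 ± 0.48. Both overlapped, as did Cish, a cytokine feedback inhibitor, at 0.93 ± 0.51 and 0.28 ± 0.30. The other alveolar genes lay below the reference in both groups, namely Foxa1, a pioneer factor of luminal cells (-1.38 ± 0.33 and -1.99 ± 0.21), Cited1, a transcriptional coactivator (-1.11 ± 0.24 and -0.74 ± 0.20), and Wnt4, a ligand of ductal branching (-2.32 ± 0.29 and -2.19 ± 0.11). Of 18 luminal epithelial genes Esrp1 alone was apart, and the list's median difference was 0.24. Of 11 basal genes, Krt17 was apart and lower, at -3.02 ± 0.25 and -1.87 ± 0.27, but not after scaling to one SD (-0.81) or quantile normalization (-0.70), under which the list held 1 member apart and higher and 0 lower. Krt5 differed by 0.84 in the other direction without overlap.

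Of the lists downstream of receptor tyrosine kinases, the MAPK and ETS list held 2 members apart, the immediate early list 1 and the ERBB list 0. Of 12 genes of MAPK feedback and ETS factors, 2 (16.7%, against 2.55% of all single-feature genes) were apart and higher and 0 lower. The median difference was 0.47 and stayed above 0 under each scaling (0.20 to 0.53). Epha2, an Eph receptor induced by the pathway, stood at 3.50, 3.73, 3.27, 2.87 and 3.41 in DMBA 1 to 5, and in Untreated tumours between 0.35 and 2.46 with a median of 1.5005. Dusp7 was the other. The list's median ran from 1.84 to 2.29 over DMBA treated tumours and from 0.28 to 1.03 over Untreated tumours, without overlap. Ier3, an early response gene, averaged 3.28 ± 0.61 in DMBA treated tumours (SD, n = 5) and 3.47 ± 0.54 in Untreated tumours (SD, n = 6), so not every member shared the direction. Of 8 single-feature members of the ERBB list, which are ligands, adaptors and regulators with no ERBB receptor among them, 0 were apart. Shc1, an adaptor of ERBB2, did not overlap, at 0.99 ± 0.18 and 0.11 ± 0.23, while Grb7, which lies beside Erbb2 in the genome, averaged 1.22 ± 0.31 and 1.04 ± 0.22 and overlapped. Errfi1, a feedback inhibitor of the receptors, averaged 1.21 ± 0.47 and 0.58 ± 0.21. The ligands overlapped too: Hbegf averaged -1.12 ± 0.28 and -0.73 ± 0.66, Epgn -0.45 ± 0.48 and -0.67 ± 0.61, and Nrg4 -1.27 ± 0.35 and -0.79 ± 0.10. So did Lrig1, a negative regulator of ERBB receptors, at 0.18 ± 0.29 and 0.16 ± 0.45, and its relative Lrig3, at -0.85 ± 0.62 and -1.10 ± 0.59. Of 15 immediate early genes Klf4, a Krüppel-like factor, was apart and higher, at -3.28 ± 0.28 and -4.35 ± 0.40, with a difference of 0.96 without DMBA 1 and 0.94 without Untreated 4. The immediate early list's median difference of 0.17 turned to -0.07 after scaling to one SD.

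Chemokine and lymphocyte genes held members apart in the lower direction only. Of 35 chemokines and receptors, 4 were apart and lower (2 after quantile normalization, where the list's median difference of -0.19 turned to 0.0098). Cxcl5, a neutrophil chemokine, stood at 0.01, -1.53, -1.66, -1.48 and -0.40 in DMBA 1 to 5, and in Untreated tumours between 0.88 and 1.84 with a median of 1.07. Ackr2, a scavenging chemokine receptor, averaged -0.86 ± 0.27 in DMBA treated tumours (SD, n = 5) and 0.64 ± 0.34 in Untreated tumours (SD, n = 6). Cxcl13, the B cell chemokine, averaged -2.58 ± 0.68 and -0.87 ± 0.59, and Cxcr5, its receptor, -0.89 ± 0.74 and 0.25 ± 0.10. Without DMBA 1 or DMBA 3 the difference of Cxcr5 was -0.95. Of 27 T, NK and B cell genes, 4 were apart and lower (1 after quantile normalization). They were Eomes, a factor of cytotoxic lymphocytes (-1.52 and -0.04, as means of DMBA treated and Untreated tumours), Lat, an adaptor of the T cell receptor (-1.98 and -0.87), Cd5 (-1.07 and 0.01) and Cd3d, a chain of the T cell receptor complex (-2.19 and -1.11). The differences of Cd3d and Cd5 were near the threshold, and Cd3d fell short of it without DMBA 3 (-0.97), DMBA 5 (-0.99), Untreated 3 (-0.9998) or Untreated 4 (-0.97), and Cd5 without Untreated 3 (-0.999). Of the 27 members 11 had a positive difference, Gata3 among them, which luminal cells also express.

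Of the antigen presentation and interferon lists, only that of MHC class II held members apart. Of 26 interferon-stimulated genes 22 had a positive difference, the median difference was 0.45 (0.19 to 0.51 under the scalings), and 0 were apart. The spread between tumours was wide: the list's median was 0.42 in DMBA 1 and 2.60 in DMBA 5, and from -0.25 to 2.45 over Untreated tumours. Zbp1, a sensor of nucleic acids, averaged 3.40 ± 0.36 in DMBA treated tumours (SD, n = 5) and 2.92 ± 0.57 in Untreated tumours (SD, n = 6). Gbp5, a guanylate-binding protein, averaged 1.10 ± 0.64 and -0.29 ± 1.17 and overlapped. Of 10 MHC class I genes 0 were apart, and the median difference was 0.56. H2-D1, a class I heavy chain whose features differ in accession, stood at 3.39, 4.07, 4.25, 3.90 and 4.13 in DMBA 1 to 5 and between 1.56 and 3.70 in Untreated tumours (median 2.25), so the groups overlapped. Class I heavy chains are near copies, and their probes may share targets. Of 10 MHC class II genes 6 had a positive difference, and the median difference of 0.069 turned to -0.20 after scaling to one SD and to -0.22 after quantile normalization. Of these genes 2 (20%, against 2.55% of all single-feature genes) were apart and higher. They were Ciita, the class II transactivator (1.78 ± 0.71 and 0.21 ± 0.37), and Rfxank, a subunit of the factor that binds class II promoters (0.97 ± 0.33 and -0.37 ± 0.38). H2-DMb1, a class II chain, averaged 3.48 ± 0.19 and 3.39 ± 0.23 and overlapped.

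Macrophage and granulocyte lists held 1 member apart each. Of 13 macrophage genes, Marco, a scavenger receptor, was the 1 apart, at -3.93 ± 0.35 in DMBA treated tumours (SD, n = 5) and -2.26 ± 0.74 in Untreated tumours (SD, n = 6). Cd14, the endotoxin co-receptor, averaged 1.93 ± 1.06 and 2.44 ± 0.63. Of 14 neutrophil granule genes, Mmp8, neutrophil collagenase, was the 1 apart, at -3.36 ± 0.37 and -2.14 ± 0.25, and not after quantile normalization or scaling to one SD. The neutrophil list's median difference was -0.46, and its median ran from -2.98 to -2.24 over DMBA treated tumours and from -1.89 to -1.49 over Untreated tumours, without overlap. Its members were split, since 6 of the 14 had a positive difference, among them the marker S100a9 (0.50). Lcn2, which neutrophils and mammary epithelium both express, averaged 2.88 ± 0.26 and 3.13 ± 0.44. Of 9 mast cell genes Hpgds, a prostaglandin D synthase, was apart and lower, at -1.11 ± 0.43 and 0.01 ± 0.43, and its difference was -0.998 without Untreated 5. Cpa3, the mast cell carboxypeptidase, averaged -4.19 ± 0.23 and -4.79 ± 0.65. Of 38 interleukins and receptors 1 was apart, Il17d, at -3.56 ± 0.19 and -2.02 ± 0.04.

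**Figure D5:**
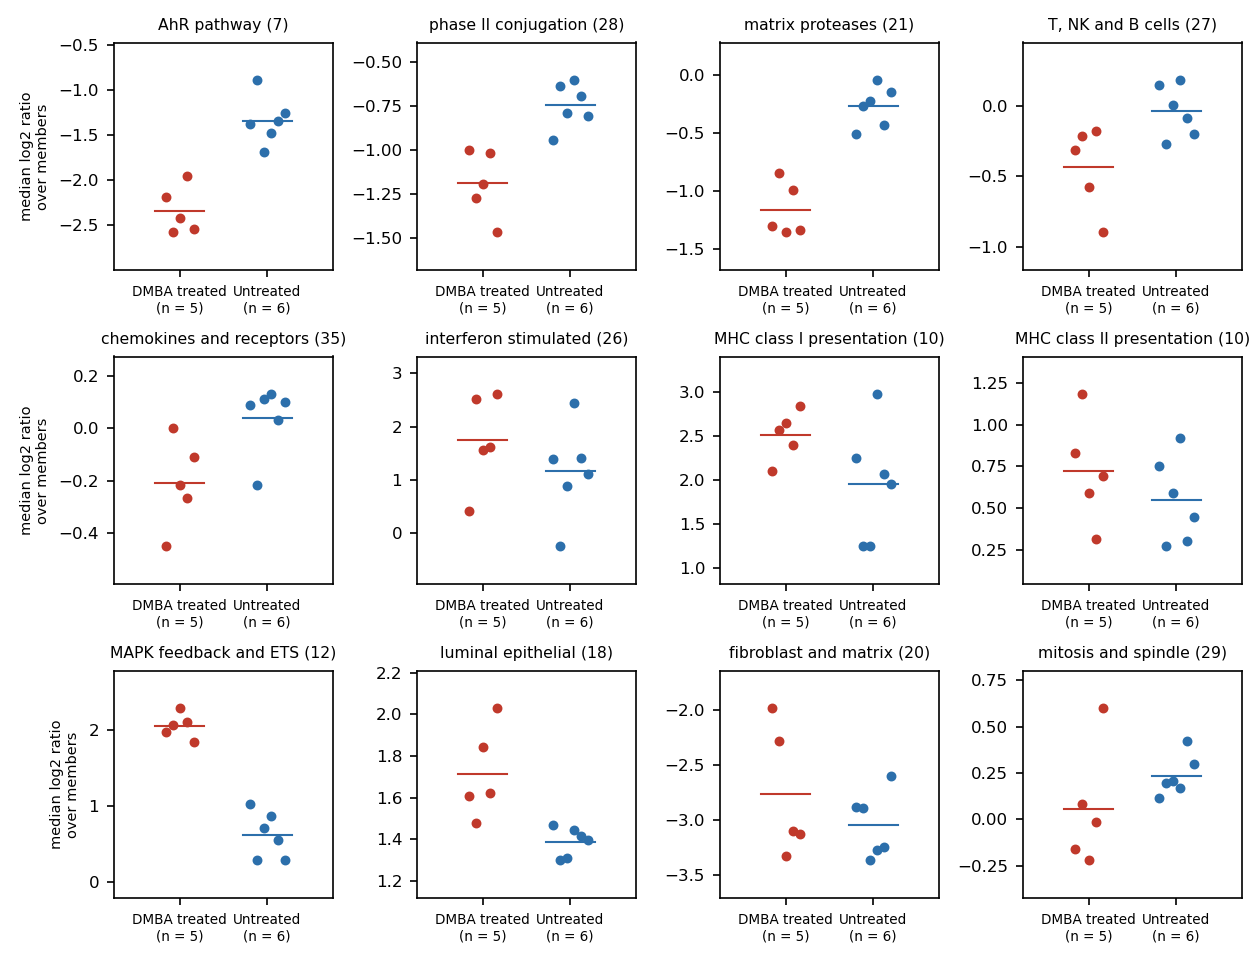
Median log2 ratio to the reference over the single-feature members of 12 gene lists (number of members in parentheses), 1 point per tumour. DMBA treated tumours (red) stand left of Untreated tumours (blue), and horizontal lines are group means. The medians do not overlap for the AhR pathway, phase II conjugation, matrix proteases, the MAPK and ETS list and the luminal list, and they overlap for the other 7 lists.

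Stromal genes gave a mixed picture. Of 21 matrix proteases and inhibitors 5 (23.8%) were apart and lower in DMBA treated tumours and 0 higher, with a median difference of -0.40 (-0.24 with 1 apart after quantile normalization). Mmp2, gelatinase A of fibroblasts, stood at -1.47, -1.98, -2.12, -2.22 and -2.36 in DMBA 1 to 5, and in Untreated tumours between -1.34 and 2.25 with a median of 1.91. The lowest Untreated tumour thus lay just above the highest DMBA treated one, and the groups overlapped after quantile normalization and after scaling to one SD. Timp2, an inhibitor of Mmp2 that also helps to activate it, averaged -2.58 ± 0.87 in DMBA treated tumours (SD, n = 5) and 0.10 ± 0.16 in Untreated tumours (SD, n = 6), and stayed apart after quantile normalization. Mmp13, a collagenase, averaged -4.03 ± 0.64 and -4.08 ± 0.34 and overlapped. Of 20 fibroblast and matrix genes 1 was apart, Eln, the elastin gene, and it was higher, at -1.77 ± 0.33 and -4.26 ± 0.21. The list's median difference of -0.022 turned to 0.34 after quantile normalization, to 0.45 after scaling to one SD and to 0.037 after centring.

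Within the DMBA treated group the stromal genes varied from tumour to tumour. Lum, the lumican gene of fibroblasts, stood at -4.20, -5.25, -8.26, -7.26 and -7.90 in DMBA 1 to 5, and in Untreated tumours between -6.75 and -4.64 with a median of -6.41. Col8a2 stood at 0.06, -0.50, -2.65, -1.84 and -2.50 in DMBA 1 to 5, and in Untreated tumours between -0.06 and 0.34 with a median of 0.15. DMBA 1 and DMBA 2 were thus the highest DMBA treated tumours for both genes, and the fibroblast list's median was -1.99 and -2.28 in these and -3.32, -3.10 and -3.12 in DMBA 3 to 5. Of 12 collagens 0 were apart. The collagen list's median did not follow the same order, at -0.21, 0.04, -0.55, -0.67 and 0.36 in DMBA 1 to 5, and was highest in DMBA 5. Col9a1, a cartilage collagen, averaged 3.72 ± 0.25 in DMBA treated tumours (SD, n = 5) and 3.21 ± 0.26 in Untreated tumours (SD, n = 6), and lay above the whole mouse reference in every tumour. Of 18 endothelial genes 0 were apart, and 15 had a positive difference. Pgf, placental growth factor, averaged 1.67 ± 0.78 and 0.72 ± 0.67. Of 7 adipocyte genes Scd1, a fatty acid desaturase also active in mammary epithelium, was apart and higher, at 1.99 ± 0.52 and 0.42 ± 0.36, while Plin1, a lipid droplet protein of fat cells, averaged -4.41 ± 0.17 and -5.25 ± 0.52. Adipoq, given above, Plin4 (-4.85 ± 0.75 and -5.03 ± 0.33), Cidec (-5.53 ± 0.46 and -5.66 ± 0.24), both of lipid droplets, Ucp1, the uncoupling protein of brown fat (-4.16 ± 0.18 and -4.72 ± 0.39), and Thrsp, a lipogenic gene (-0.45 ± 0.27 and -0.69 ± 0.66), overlapped. Scaled to one SD, 3 of the 7 were apart and higher. Of 8 EMT regulators 0 were apart (1 higher after scaling to one SD and 1 after quantile normalization), and the median difference of -0.18 turned to 0.05 after scaling to one SD and to 0.10 after quantile normalization. Twist2 had the largest difference in size, at -4.08 ± 0.33 and -3.11 ± 0.14, and did not overlap, while Twist1, whose features differ in accession, went the other way, at -3.04 ± 0.48 and -3.88 ± 0.35. The others overlapped. Snai1 averaged -2.08 ± 0.39 and -1.86 ± 0.41, Snai2 -4.11 ± 0.54 and -3.97 ± 0.29, and Snai3 -0.01 ± 0.34 and -0.06 ± 0.16. Of the forkhead and homeobox members, Foxc1 averaged 2.19 ± 0.20 and 2.42 ± 0.41, Foxc2 -1.68 ± 0.56 and -1.80 ± 0.39, and Gsc -1.65 ± 0.29 and -1.07 ± 0.24. Foxc1 was thus the 1 EMT regulator above the reference in both groups.

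Wnt genes had members apart in both directions. Of 37 members 3 were apart and higher and 3 lower (3 and 2 after quantile normalization). The higher ones were receptors: Lrp5 averaged 3.99 ± 0.38 in DMBA treated tumours (SD, n = 5) and 2.47 ± 0.54 in Untreated tumours (SD, n = 6), Fzd4 -1.01 ± 0.37 and -2.40 ± 0.58, and Fzd6 1.91 ± 0.45 and 0.58 ± 0.26. The lower ones were Axin2, given above, and the ligands Wnt2, at -3.67 ± 0.85 and -1.94 ± 0.30, and Wnt16, at -1.81 ± 0.40 and -0.67 ± 0.39. Of 21 Notch genes 2 were apart and lower and 1 higher. Hes5, a Notch target of neural progenitors, averaged -3.83 ± 0.39 and -0.51 ± 0.21, and Dll3, an inhibitory ligand, -0.37 ± 0.67 and 1.48 ± 0.49. Numbl was the higher one, at -0.08 ± 0.52 and -2.81 ± 0.28. Hey1, another Notch target, averaged 3.86 ± 0.19 and 3.23 ± 0.13 and did not overlap.

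Growth factor and nuclear receptor genes showed members on both sides. Of 32 TGF-beta and BMP genes 3 were apart and lower and 1 higher. Grem1, a BMP antagonist, averaged -1.79 ± 0.17 in DMBA treated tumours (SD, n = 5) and -0.08 ± 0.21 in Untreated tumours (SD, n = 6), and Smad2, a signal transducer, -0.68 ± 0.19 and 0.53 ± 0.21. Both have features of different accessions. Ltbp2, a latent TGF-beta binding family protein, was the higher one, at 3.01 ± 0.11 and 1.93 ± 0.64, and without Untreated 6 its difference was 0.86. It was not apart after scaling to one SD (0.74) or quantile normalization (0.78), under which 0 members of the list were higher and 2 lower. Of 10 FGF genes Fgf5 was apart and lower, at -2.62 ± 0.75 and -0.10 ± 0.23, and of 8 IGF genes Igfbp6 apart and higher, at -1.55 ± 0.21 and -2.59 ± 0.12. The difference of Igfbp6 was 0.996 without DMBA 1 and 0.97 without DMBA 2. The other 7 IGF genes overlapped. Igfals, which encodes the acid-labile subunit of the IGF carrier complex, averaged 2.88 ± 0.08 and 2.74 ± 0.35, and Igf2r, the clearance receptor of IGF2, 1.03 ± 0.39 and 0.73 ± 0.67. Of the binding proteins, Igfbp1 averaged -5.28 ± 0.29 and -4.72 ± 0.39, Igfbp2 -2.78 ± 0.42 and -3.39 ± 0.65, and Igfbp7 -0.81 ± 0.54 and -0.80 ± 0.44. Insrr, an insulin receptor-related kinase, averaged 0.65 ± 0.44 and 0.11 ± 0.18, and Irs3, an insulin receptor substrate, 0.15 ± 0.59 and 0.08 ± 0.24. Of 18 nuclear receptors 3 were apart in each direction. Nr2e1, a receptor of neural stem cells, averaged -3.92 ± 0.70 and -0.16 ± 0.28, Nr5a2, a receptor of liver and embryo, -4.36 ± 0.19 and -2.60 ± 0.42, and Nr1h3, the oxysterol receptor LXR alpha, -1.28 ± 0.35 and 0.15 ± 0.79. The higher ones were Nr2f1, also called COUP-TFI (-2.39 ± 0.48 and -4.22 ± 0.42), Vdr, the vitamin D receptor (1.66 ± 0.63 and 0.42 ± 0.13), and Nr1i3, the xenobiotic receptor CAR (-0.36 ± 0.22 and -1.50 ± 0.25).

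The retinoid list bears on the rexinoids of the series title, although no rexinoid sample was analysed here. Of 19 members 2 were apart and higher and 1 lower. Rdh12, a retinal reductase, stood at 1.31, 2.76, 1.71, 2.16 and 0.61 in DMBA 1 to 5, and in Untreated tumours between -0.33 and 0.34 with a median of -0.04. Rbp4, the plasma retinol carrier, averaged -5.29 ± 0.22 in DMBA treated tumours (SD, n = 5) and -6.52 ± 0.22 in Untreated tumours (SD, n = 6). Aldh1a2, which makes retinoic acid, averaged -2.65 ± 0.49 and -1.03 ± 0.10. Crabp2, a retinoic acid carrier, varied widely in DMBA treated tumours, from -3.29 in DMBA 3 to 2.61 in DMBA 1, and ran from 0.60 to 2.71 in Untreated tumours. Rxrg, a retinoid X receptor, averaged -5.02 ± 0.33 and -4.28 ± 0.95 and overlapped.

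Genes of proliferation and DNA damage were close in the 2 groups. Of 29 mitosis genes and of 31 replication genes 0 were apart, with median differences of -0.17 and -0.23. Hmmr, a spindle protein, averaged 1.65 ± 0.57 in DMBA treated tumours (SD, n = 5) and 1.05 ± 0.37 in Untreated tumours (SD, n = 6). Pold2, a DNA polymerase subunit, averaged 0.28 ± 0.27 and 1.22 ± 0.36 and overlapped. Of 27 DNA repair genes 1 was apart in each direction: Ercc2, a helicase of nucleotide excision repair, averaged 1.31 ± 0.998 and 0.17 ± 0.21, and without DMBA 3, at 3.03, its difference was 0.71. Ddb2, a damage sensor and p53 target whose features differ in accession, averaged 0.08 ± 0.38 and 2.48 ± 1.13. It was also the 1 of 11 p53 targets apart. After centring, it was not apart. Of 9 G1 regulators Cdkn2b, the CDK inhibitor p15, was apart and lower, at -1.86 ± 0.55 and -0.37 ± 0.09. Of 23 apoptosis genes Casp9, the initiator caspase, was apart and higher, at 0.13 ± 0.17 and -0.96 ± 0.15.

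Chromatin regulators held higher members only. Of 31 members 3 were apart and higher and 0 lower, under each scaling, and the median difference was 0.36. Cbx7, a Polycomb protein, stood at 1.86, 1.82, 1.91, 1.91 and 1.75 in DMBA 1 to 5, and in Untreated tumours between 0.30 and 0.73 with a median of 0.36. Kdm6b, a demethylase that removes the Polycomb mark, averaged 1.19 ± 0.28 in DMBA treated tumours (SD, n = 5) and -0.16 ± 0.34 in Untreated tumours (SD, n = 6). Ezh1, a Polycomb methyltransferase whose features differ in accession, averaged 1.23 ± 0.55 and 0.06 ± 0.14, and without DMBA 3 its difference was 0.94.

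Several large metabolic and housekeeping lists held no member apart. Of 57 respiratory chain genes, 32 cytoplasmic ribosomal proteins and 22 proteasome genes 0 were apart, with median differences of -0.079, 0.020 and -0.13. Rpl21 averaged 0.20 ± 0.17 in DMBA treated tumours (SD, n = 5) and -0.60 ± 0.13 in Untreated tumours (SD, n = 6), the largest difference of the ribosomal list. Of 38 mitochondrial ribosomal proteins Mrps24 was apart and lower, at -0.40 ± 0.21 and 0.80 ± 0.31. Of 28 genes of the unfolded protein response and of 16 heat shock proteins 0 were apart. Sdf2l1, a chaperone of the endoplasmic reticulum, averaged 2.86 ± 0.38 and 1.68 ± 0.68 and overlapped. Of 24 glycolysis and hypoxia genes Slc2a1, the glucose transporter GLUT1, was apart and higher, at 2.80 ± 0.41 and 1.78 ± 0.46, but not after quantile normalization. Without any of DMBA 2, DMBA 5, Untreated 3, Untreated 4 or Untreated 6 its difference lay between 0.90 and 0.97. Of 24 genes of fatty acid and sterol synthesis 3 were apart and lower (1 after quantile normalization) and 1 apart and higher. Acsl3, an acyl-CoA synthetase, was a lower one, at -1.52 ± 0.25 and -0.26 ± 0.45. Scd1, given above with the adipocyte genes, was the higher one, at a difference of 1.57. Srebf1, the factor that drives lipid synthesis, averaged 2.75 ± 0.28 and 2.59 ± 0.23 and overlapped. Of 24 fatty acid oxidation genes Acot12, a cytosolic thioesterase of liver, and Ucp3, a mitochondrial carrier of muscle, were apart and lower, at -4.42 ± 0.91 and -2.35 ± 0.17, and at -1.80 ± 0.47 and -0.41 ± 0.14.

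Secreted and surface proteins of other families completed the lists. Of 24 kallikreins and serpins 4 were apart and lower (2 lower and 1 higher after quantile normalization). Klk8, neuropsin, averaged -2.37 ± 0.22 in DMBA treated tumours (SD, n = 5) and 0.21 ± 0.10 in Untreated tumours (SD, n = 6). Serpinb10, a serpin of blood cells whose features differ in accession, averaged -2.83 ± 0.21 and 0.12 ± 0.20. Of 18 mucins and glycosyltransferases 3 were apart and lower and 1 higher. Muc20, a transmembrane mucin, was the higher one, at 3.88, 4.70, 3.88, 3.91 and 3.69 in DMBA 1 to 5 and between 1.85 and 3.11 in Untreated tumours (median 2.70). Muc5b, a gel-forming mucin, averaged -2.55 ± 0.22 and -1.38 ± 0.17. Of 12 Eph receptors and ephrins Epha2 was higher and Efnb3, an ephrin ligand, lower, with Efnb3 at -1.93 ± 0.10 and 0.18 ± 0.32. Of 10 imprinted genes of fetal growth 2 were apart and higher, Nnat, neuronatin (-2.14 ± 0.15 and -3.34 ± 0.24), and Mest (-5.12 ± 0.37 and -6.21 ± 0.39). The difference of Mest was 0.95 without DMBA 2 and 0.97 without Untreated 3.

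Smaller families each held 1 or 2 members apart. Of 12 erythroid genes Rhag, a red cell membrane protein, was apart and lower, at -3.44 ± 1.38 in DMBA treated tumours (SD, n = 5) and -1.14 ± 0.14 in Untreated tumours (SD, n = 6), and Hbb-y, an embryonic globin gene, apart and higher, at -0.97 ± 0.34 and -3.06 ± 0.98. Globin genes are similar in sequence, and which of them a probe reads was not tested. Of 10 semaphorins and plexins, Sema3d and Sema4f, guidance ligands, were apart and lower, at -3.05 ± 0.41 and -1.23 ± 0.97 and at -1.16 ± 0.32 and 0.13 ± 0.26. Of 11 S100 genes S100g, the calcium carrier calbindin-D9k, was apart and lower, at -5.79 ± 0.15 and -4.44 ± 0.48. Of 17 ABC transporters 2 were apart and lower and 0 after quantile normalization. Abca8a averaged -2.44 ± 0.55 and -1.22 ± 0.34, and Abcb11, the bile salt pump of liver, -4.30 ± 0.46 and -3.17 ± 0.21. Of 14 integrins and laminins Itga5, the fibronectin receptor chain, was apart and lower, at -1.09 ± 0.49 and -0.04 ± 0.12, but under none of the 3 scalings, and without DMBA 5 its difference was -0.85.

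Genes of brain, liver, muscle and testis also held members apart, as measured on the same arrays. Of 7 brain genes 3 were apart and lower in DMBA treated tumours: Slc32a1, Cplx1, a synaptic complexin (-2.62 ± 0.36 in DMBA treated, SD, n = 5, and 0.25 ± 0.29 in Untreated tumours, SD, n = 6), and Olig1, an oligodendrocyte factor (-3.09 ± 0.63 and -0.26 ± 0.15). The other brain genes overlapped. Stmn4, a neuronal stathmin, averaged -4.23 ± 0.35 and -4.24 ± 0.84, its relative Stmn3 -2.70 ± 0.13 and -3.15 ± 0.19, and Nrgn, neurogranin, -2.60 ± 0.41 and -2.27 ± 0.40. Grin2a, a glutamate receptor subunit, averaged 0.44 ± 0.73 and -0.42 ± 0.57. Of 23 liver genes 3 were apart and lower. Pck1, the gluconeogenic enzyme, averaged -6.63 ± 0.47 and -3.53 ± 0.23, and Tat, tyrosine aminotransferase, -2.74 ± 0.27 and -0.79 ± 0.36. Ambp, a plasma protein precursor of liver, averaged -6.34 ± 0.37 and -6.37 ± 0.27. Of 17 muscle genes 2 were apart and lower and 1 higher, with Tcap, titin-cap, a lower one, at -2.98 ± 0.52 and 0.14 ± 0.44. Most of the muscle list went the other way, with 14 positive differences and a median difference of 0.55. That median was 0.79 after quantile normalization and 1.13 after scaling to one SD. Of 26 testis genes Smcp, a sperm mitochondrial protein, was apart and lower, at -3.96 ± 0.40 and -1.20 ± 0.08.

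Spread within a group was small for most genes and wide for a few. The median SD over genes was 0.343 in DMBA treated and 0.277 in Untreated tumours, and it was larger in DMBA treated tumours for 60.4% of genes. Correlations between tumours, across genes, ran from 0.84 to 0.90 within DMBA treated and from 0.87 to 0.94 within Untreated tumours. Each of the 5 genes with the largest SD in DMBA treated tumours had a single tumour far off. Dnali1, a cilia dynein chain, was at 6.60 in DMBA 2 and between -1.83 and -0.90 in the other DMBA treated tumours, and Ninj2, an adhesion gene, at -6.98 in DMBA 2 and between 0.25 and 0.78 in the others. Rdh16f2, a retinol dehydrogenase family member, was at -9.71 in DMBA 2 and between -2.33 and -1.86 in the others. Sh2d4b, an SH2 domain gene, was at -6.41 in DMBA 1, and Olfr1453, an olfactory receptor, at -5.75 in DMBA 3. Among Untreated tumours the largest SD were those of Lgals7, a galectin of keratinocytes, from -4.25 to 1.49, Ppp2r2c, a phosphatase subunit, from -3.33 to 1.11, Fetub, fetuin B of liver, from -3.16 to 2.91, Lars2, the mitochondrial leucyl-tRNA synthetase, from -2.82 to 2.09, and Gpx2, an intestinal glutathione peroxidase, from -0.72 to 3.91. Gpx2 ran from -1.54 to 1.15 in DMBA treated tumours.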

How the data were processed

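RNA of 5 DMBA treated and 6 Untreated mammary tumours was hybridised against a whole mouse reference RNA on 2-colour arrays, per the labels. The deposited tables hold 1 value per feature and array, taken as log2 ratios because they carry both signs, centre near 0 and run from -10.70 to 8.37. The log base, the authors' normalization and the scan signals are not given in the sources used here, so signal over background is unknown and the number of arrays limits the precision. Symbols came from the platform annotations, where 33653 of 45220 features in the DMBA treated table and 18658 of 22575 in the Untreated table carried 1 symbol. Genes with 1 feature in each table were kept. Between groups, means, overlap and differences were described without a test. Within each table limma 3.58.1 (R 4.3.3) tested every gene's mean ratio against 0, two-sided, with Benjamini-Hochberg adjustment over the whole table and a threshold of 0.05, and was tested on simulated data. Both groups share the reference, so calls in the same direction were not counted as overlaps. The calls of both tables were combined only to find genes on opposite sides of the reference.

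Genes named in the text are the 15 largest differences each way, leading members of the lists, all members of lists of up to 8, genes called on opposite sides, the 5 largest SD per group and the neighbours of the threshold. Further members were named where a sentence counts 5 or fewer, and marker genes where the tumours were checked. The single-feature genes, the lists and the rules were chosen with earlier results of these data known. Alternatives were scaling, thresholds, gene matching and leaving out single tumours. The rexinoid and p53 samples that the series title mentions were not analysed here.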

Additional observations from a re-analysis of the deposited data

Results flagged for a closer look

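In 37 of 566 sets of values examined (the named genes and the list medians, in each group), 1 tumour stood far from the others by Dixon's criterion. Chance flags about 1 in 20 groups, but some named genes were picked for their large SD, so the count cannot be set against that rate. DMBA 2 was the outlying tumour in 9 of the 37 sets and Untreated 2 in 5. The 9 include Dnali1, Ninj2 and Rdh16f2, which were named for their large SD.

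In DMBA 2 the outlying values were 6.60 for Dnali1, -6.98 for Ninj2, -9.71 for Rdh16f2, -4.29 for Cyp3a41a, 4.70 for Muc20, 0.78 for Dll3, -0.47 for Cd5, -2.10 for Pigv and -1.91 for Fetub. Csn2, highest in the same tumour, was not among them. In DMBA 5 they were 3.94 for Foxi1, -1.03 for Nqo1 and -0.52 for Ppp2r2c. In DMBA 3 they were 3.03 for Ercc2, -1.52 for Ugt2b34 and -5.75 for Olfr1453, in DMBA 4 3.74 for Rassf3, and in DMBA 1 0.75 for Tmem81 and -6.41 for Sh2d4b.

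Among Untreated tumours, Untreated 2 was low for Ccdc106 (0.95), Ms4a8a (-0.53), Mmp2 (-1.34) and Chil3 (-1.24), all of which had DMBA treated means below 0. Untreated 4 was high for Efnb3 (0.78), Gbp5 (1.94) and Stmn4 (-2.62), and Untreated 5 high for Hoxd12 (1.11) and Marco (-0.81) and low for Grb7 (0.61). Untreated 6 was high for Rxrg (-2.37) and Sema3d (0.68), and Untreated 3 low for Lcn2 (2.24) and Rfxank (-1.11). Of the list medians, that of chemokines and receptors was -0.22 in Untreated 2, that of NRF2 antioxidant genes -0.27 and of the unfolded protein response 1.23 in DMBA 5, that of cytochrome P450 genes -1.25 in DMBA 4 and that of DNA replication -0.29 in DMBA 3.

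For 17 named genes every DMBA treated tumour lay on one side of the reference and every Untreated tumour on the other, and this difference was not tested. Above the reference in DMBA treated tumours were Ctsc (difference 3.98), Myh13 (3.51), Dusp7 (2.63), Prpf19 (2.58), Cep68 (2.16) and Rfxank (1.34). Below it were Ccdc106 (-6.06), Pla2g5 (-4.21), Mip (-4.10), Krt34 (-2.69), Klk8 (-2.58), Arnt2 (-2.47), Ackr2 (-1.50), Smad2 (-1.21), Mrps24 (-1.20), Cxcr5 (-1.14) and Pigv (-1.001).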

How the results depend on the processing

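Quantile normalization of all arrays gave 261 genes apart and higher and 278 apart and lower. A 1.5-fold threshold gave 447 and 719, a 4-fold threshold 34 and 114, and all 16351 genes with features averaged 535 and 828. With means of at least 0.5 in size in both tables, an alternative chosen after seeing the data, the counts were 107 and 235. Leaving out single tumours gave 211 to 236 higher and 431 to 507 lower. Against the reference, limma called 4966 genes in DMBA treated and 5083 in Untreated tumours, 4507 to 4818 and 4584 to 4947 without single tumours, and 2574 and 2143 when tested against a 1.5-fold change. The fixed thresholds and the gene sets set these counts by construction, and the cause of the shift under quantile normalization was not tested. Of 129 named genes apart, 125 were apart after centring, 108 after scaling to one SD and 100 after quantile normalization, and 18 were not apart without some single tumour. The 30 largest differences were apart in all 664 values under alternatives. These genes were picked for their size in the same data, and genes that an alternative left out were not counted, so this is no independent check. Of 1344 list medians under alternatives 72 moved by more than 1 SD, 18 of them under quantile normalization, 18 with means of at least 0.5 in size in both tables, 14 after scaling to one SD and 10 with all genes averaged. No paired analysis was possible because no test was made between the groups. Some title numbers occur in both, with no label of what they mark. Platform, table and treatment cannot be told apart, each gene rests on 1 probe per table, and signal over background is unknown.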
